A study of Mus musculus with 70 samples.

Results

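Chemokines made by microglia were followed through bulk 3' transcript counts of sorted mouse brain microglia. Their members are the 10 genes Ccl2, Ccl12, Ccl7, Ccl3, Ccl4, Ccl5, Ccl6, Ccl9, Cxcl10 and Cxcl16, taken by gene symbol from 25797 genes named in 5 count tables. All 10 had a row in 4 of the tables, and 9 had one in the adult Jung table, which was used here without Ccl7. In vehicle-treated pups with the Littman Cre and tamoxifen, Ccl2, Ccl7, Ccl12, Ccl5, Cxcl10 and Cxcl16 were more than 6-fold higher than in pups without Cre or without tamoxifen, while Ccl6 and Ccl9 were lower.

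The study asks how tamoxifen affects microglia of the Littman and Jung Cx3cr1CreERT2 lines, in which a tamoxifen-dependent Cre recombinase replaces 1 allele of the microglial receptor gene Cx3cr1. Each of the 70 libraries holds the RNA of 500 cells, which were gated from perfused brains as positive for CD11b and CD45 and negative for Ly6G and CD206. The vehicle and UC2288 pups were Cx3cr1CreERT2(Litt) Hetero (Cre+) or Cx3cr1+/+ (Cre-) and fell into 5 groups: UC2288 with tamoxifen in Cre+ (5 libraries), vehicle with tamoxifen in Cre+ (4), UC2288 with tamoxifen in Cre- (3), vehicle with tamoxifen in Cre- (5) and vehicle with oil in Cre+ (4). UC2288, given at 100 mg per kg in corn oil with DMSO, is used to inhibit CDKN1A (p21), an inhibitor of the cell cycle. The other postnatal pups all received tamoxifen or oil alone: Littman Cre+ with tamoxifen (5), Littman Cre- with tamoxifen (5), Jung with tamoxifen (4) and Jung with oil (5). The postnatal Jung pups were Cx3cr1CreERT2(Jung) Hetero and Rosa26YFP Hetero. Pups were 8 or 14 days old and received tamoxifen on P1 and P3 (0.1 mg each) or on P5 and P7 (0.2 mg each). The labels do not say which library had which age or schedule.

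Adults of 6 to 15 weeks made up the remaining libraries: adult Littman with tamoxifen (3) or oil (4), adult-titled Jung with tamoxifen (4) or oil (4), BLZ-titled Littman with tamoxifen (4) or oil (3) and BLZ-titled Jung with tamoxifen (4) or oil (4). All were heterozygous for their Cre, and BLZ-titled Jung mice also for Rosa26YFP. Adult tamoxifen was 4 mg per injection, given on 2 occasions. BLZ945, an inhibitor of the receptor CSF1R that removes microglia, was gavaged at 100 mg per kg. The treatment labels name BLZ945 for the BLZ-titled Littman and, against their titles, for the adult-titled Jung libraries, but not for the BLZ-titled Jung libraries. Titles defined the groups here. No label says that replicates came from separate animals, so p-values measure the spread between libraries, which may be partly technical.

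Depth differed between tables. A library of the vehicle and UC2288 table held 116083 to 277680 counts, a postnatal library 329329 to 450461, a BLZ-titled library 184513 to 236106, an adult Jung library 274120 to 304794 and an adult Littman library 288396 to 347941. Values are counts scaled to a library's total (CPM). At these depths a single count is worth roughly 2 to 9 CPM, so values near that are a count or so. The 7 microglial markers were detected in every group and summed to 5553 to 22390 CPM, and T and NK cell markers summed to at most 8.85 CPM. One library stands apart: among the UC2288-treated Cre+ libraries, replicate 3 had 1803 CPM of Cx3cr1 against 651.2 to 916.7 CPM in the other 4, and 3007 CPM summed over the interferon-response list against 5612 to 7792 CPM. Values without it stand beside the main results that include it, and each call of a member made with it in a comparison of UC2288-treated Cre+ pups was also made without it.

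Chemokines are small secreted proteins that guide leukocytes by binding G-protein-coupled receptors. CCL2, CCL7 and CCL12 act on CCR2 and draw monocytes, CCL3 and CCL5 act on CCR1 among other receptors, CCL4 draws monocytes and T cells, CXCL10 acts on CXCR3 of activated T and NK cells, and CXCL16, a membrane-anchored chemokine, acts on CXCR6. CCL6 and CCL9 are mouse ligands of CCR1 that myeloid cells make at rest. Many of these genes have NF-kB or interferon-responsive promoters, and Cxcl10 is a textbook interferon target.

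In the GRCm38 build, Cxcl10 lies on chromosome 5 at 92346638 to 92348889 (ENSMUSG00000034855, minus strand). The other 9 lie on chromosome 11. Ccl2 (82035571 to 82037453), Ccl7 (82045712 to 82047525) and Ccl12 (82101845 to 82103400) lie in 1 stretch on the plus strand. Ccl5 (83525778 to 83530518), Ccl9 (83572919 to 83578636), Ccl6 (83587882 to 83593087) and Ccl3 (83647844 to 83649355) follow on the minus strand, then Ccl4 (83662584 to 83664683) on the plus strand, while Cxcl16 (70453983 to 70459984) is apart on the minus strand. All are protein-coding genes. Ccl2, Ccl6, Cxcl10 and Cxcl16 overlap an annotated gene on the other strand (Gm17268, E230016K23Rik, Art3 and Zmynd15), and without a stated strand setting their reads cannot be told apart from those of the partner.

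RefSeq promoter windows on GRCm38.p6 were found for 5 of the 10 genes. Shown are the bases before the start for Cxcl10 and Ccl12, which were higher with Cre and tamoxifen in the results that follow, and for Ccl9, which was lower. Capitals mark matches, on either strand, to an NF-kB frame (GGG, 5 bases of any kind, CC), an interferon-stimulated response element (TTTC, 2 bases of any kind, TTTC) or TATAAA. TTCNNNGAA, a gamma-activated sequence, was searched too.
Cxcl10, chr5:92348890-92349139, minus strand: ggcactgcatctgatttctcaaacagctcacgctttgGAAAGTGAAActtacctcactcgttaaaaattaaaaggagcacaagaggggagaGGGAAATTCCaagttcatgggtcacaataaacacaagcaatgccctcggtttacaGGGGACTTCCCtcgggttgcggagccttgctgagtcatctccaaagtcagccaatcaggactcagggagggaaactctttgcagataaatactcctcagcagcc
Ccl12, chr11:82101695-82101844, plus strand: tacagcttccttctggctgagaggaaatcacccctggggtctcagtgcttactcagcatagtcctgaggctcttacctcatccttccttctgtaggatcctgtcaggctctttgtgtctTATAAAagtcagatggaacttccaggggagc
Ccl9, chr11:83578637-83578786, minus strand: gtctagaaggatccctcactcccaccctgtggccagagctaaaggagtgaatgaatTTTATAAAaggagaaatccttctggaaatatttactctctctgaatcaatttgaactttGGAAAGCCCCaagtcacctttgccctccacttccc
The Cxcl10 window holds the NF-kB frame at 159 to 150 bases and, overlapping itself, at 104 to 95 and 103 to 94 bases before the start, and the interferon element on the opposite strand at 213 to 204 bases. The Ccl12 stretch holds TATAAA at 31 to 26 bases, and the Ccl9 stretch holds the NF-kB frame on the opposite strand at 35 to 26 bases and overlapping TATAAA matches between 94 and 87 bases. The windows of Ccl6 and Ccl3 had no match to any of the motifs. The search covered 250 bases before each start, of which the Ccl12 and Ccl9 stretches show the last 150. Farther out, the Ccl9 window holds TATAAA on the opposite strand at 224 to 219 bases. Of 32544 promoters of 250 bases, 46.0% hold the NF-kB frame, 2.98% the interferon element, 7.04% TTCNNNGAA and 12.3% TATAAA. A match describes letters, not a bound site.

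In vehicle-treated pups given tamoxifen, microglia with Cre were compared with microglia without it. Ccl2, Ccl7, Ccl12, Ccl5, Cxcl10, Cxcl16 and Ccl4 were higher in Cre+ and Ccl6 and Ccl9 lower, so 9 of 10 members passed the test, while Ccl3 did not. Over all 4953 tested genes 27.2% were called in this comparison, 14.3% higher and 12.9% lower. The members' median log2 fold change was 2.67, beside -0.0074 over all tested genes. In bulk RNA, fewer cells of a type and less RNA per cell cannot be told apart. The same 4 vehicle-treated Cre+ tamoxifen libraries were also set against oil-treated Cre+ libraries, where 9 of 10 members were called and 31.4% of all genes (16.1% higher, 15.3% lower), with medians of 3.32 and 0.0034. The members' values in both comparisons follow.

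Ccl2, the main monocyte attractant, had 888.7, 923.0, 759.9 and 592.9 CPM in the vehicle Cre+ tamoxifen libraries. It had 66.1, 42.1, 31.4, 51.9 and 4.66 CPM in the Cre- tamoxifen libraries, and 25.3, 29.0, 51.0 and 20.8 CPM in the Cre+ oil libraries. Every Cre+ tamoxifen library was above every library of the other groups by an order of magnitude or nearly so. Ccl2 was 18.2-fold higher than in Cre- (log2 4.19 ± 0.39 SE, edgeR adjusted p = 2.75e-10). Against oil it was 22.0-fold higher (log2 4.46 ± 0.45, edgeR adjusted p = 2.00e-09).

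Ccl12, a mouse CCR2 ligand encoded in the same stretch of chromosome 11, had 1403, 1292, 734.7 and 1206 CPM in Cre+ tamoxifen libraries. It had 150.1, 229.3, 98.6, 196.1 and 125.9 CPM in Cre- tamoxifen libraries, and 121.4, 116.0, 122.4 and 124.7 CPM in Cre+ oil libraries. The Cre+ tamoxifen group overlapped with neither, and the oil libraries lay close together. The difference was 6.39-fold from Cre- (log2 2.68 ± 0.27, edgeR adjusted p = 1.35e-09) and 8.74-fold from oil (log2 3.13 ± 0.31, edgeR adjusted p = 1.36e-09). Ccl7, the third gene of this trio, had 196.3, 157.6, 176.5 and 89.6 CPM in Cre+ tamoxifen libraries. It was at 0, 0, 8.96, 11.5 and 4.66 CPM in Cre- tamoxifen libraries, and at 0 in 3 oil libraries with 6.93 CPM in the last. Ccl7 was thus close to undetected outside the Cre+ tamoxifen group. It was 24.7-fold higher than in Cre- (log2 4.62 ± 0.58, edgeR adjusted p = 1.54e-07). Against oil, pooled counts of 150 and 1 gave a ratio of 111 with a 95% interval of 19.6 to 4407 (edgeR adjusted p = 3.87e-07), and such intervals cover counting error only.

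Cxcl10, the CXCR3 ligand, had 266.6, 252.1, 165.7 and 137.9 CPM in Cre+ tamoxifen libraries. It was at 6.00, 0, 0, 11.5 and 0 CPM in Cre- tamoxifen libraries, and at 5.06 CPM in 1 oil library and 0 in the other 3. Its pooled counts of 194 and 3 gave a ratio of 70.1 to Cre- (95% interval 23.6 to 343, edgeR adjusted p = 3.40e-10). Against oil the counts were 194 and 1, a ratio of 143 (25.4 to 5691, edgeR adjusted p = 3.64e-09). Ccl5, a ligand of CCR1 that attracts T cells and monocytes, had 66.7, 72.0, 61.2 and 68.9 CPM in Cre+ tamoxifen libraries and no count in any Cre- tamoxifen or Cre+ oil library. With 3 counts assumed over the group at 0, it was at least 22.0-fold higher than in Cre- (edgeR adjusted p = 0.000125) and at least 15.0-fold higher than in oil (edgeR adjusted p = 0.000425). Both genes were thus near or at 0 outside the Cre+ tamoxifen group.

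Cxcl16, the membrane-anchored CXCR6 ligand, had 222.2, 297.1, 198.1 and 193.0 CPM in Cre+ tamoxifen libraries. It had 24.0, 56.2, 31.4, 23.1 and 18.7 CPM in Cre- tamoxifen libraries, and 10.1, 29.0, 25.5 and 6.93 CPM in Cre+ oil libraries. It was detected in every library and was 6.31-fold higher than in Cre- (log2 2.66 ± 0.43, edgeR adjusted p = 1.58e-05) and 11.4-fold higher than in oil (log2 3.51 ± 0.53, edgeR adjusted p = 6.20e-06).

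The neighbours Ccl3 and Ccl4, which encode MIP-1α and MIP-1β, differed in their calls. Ccl4 had 137.0, 162.1, 162.1 and 206.8 CPM in Cre+ tamoxifen libraries, 90.1, 79.6, 67.2, 69.2 and 4.66 CPM in Cre- tamoxifen libraries, and 15.2, 7.25, 51.0 and 13.9 CPM in Cre+ oil libraries. It was 2.37-fold higher than in Cre- (log2 1.24 ± 0.42, edgeR adjusted p = 0.0257), a call lost without Cre- replicate 5 (log2 0.94, adjusted p = 0.0812) or Cre+ replicate 4 (log2 1.12, adjusted p = 0.0688). Against oil it was 6.31-fold higher (log2 2.66 ± 0.55, edgeR adjusted p = 0.000375). Ccl3 averaged 54.3 ± 18.2 CPM in Cre+ tamoxifen (SD, n = 4), 73.9 ± 31.3 CPM in Cre- tamoxifen (n = 5) and 26.9 ± 8.4 CPM in Cre+ oil libraries (n = 4), and these groups overlapped except for a gap between Cre- tamoxifen and oil. It was not called against Cre- (log2 -0.65 ± 0.39, edgeR adjusted p = 0.221) or against oil (log2 0.83 ± 0.50, edgeR adjusted p = 0.207).

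Ccl6 and Ccl9, the mouse CCR1 ligands of resting myeloid cells, went the other way. Ccl9 had 59.3, 31.5, 36.0 and 34.5 CPM in Cre+ tamoxifen libraries, 72.1, 131.0, 103.0, 173.1 and 79.3 CPM in Cre- tamoxifen libraries, and 187.2, 152.2, 153.0 and 152.4 CPM in Cre+ oil libraries. All Cre+ tamoxifen libraries were below all others of these groups. Ccl9 was 3.04-fold lower than in Cre- (log2 -1.61 ± 0.34, edgeR adjusted p = 0.000614) and 4.25-fold lower than in oil (log2 -2.09 ± 0.35, edgeR adjusted p = 2.40e-05). Ccl6 had 103.7, 49.5, 46.8 and 55.2 CPM in Cre+ tamoxifen libraries, 132.1, 210.6, 112.0, 173.1 and 79.3 CPM in Cre- tamoxifen libraries, and 182.1, 87.0, 153.0 and 221.7 CPM in Cre+ oil libraries. Its groups overlapped through Cre+ tamoxifen replicate 1, the highest of its group. Ccl6 was 2.46-fold lower than in Cre- (log2 -1.30 ± 0.32, edgeR adjusted p = 0.00291) and 2.72-fold lower than in oil (log2 -1.44 ± 0.34, edgeR adjusted p = 0.00143).

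**Figure D1:**
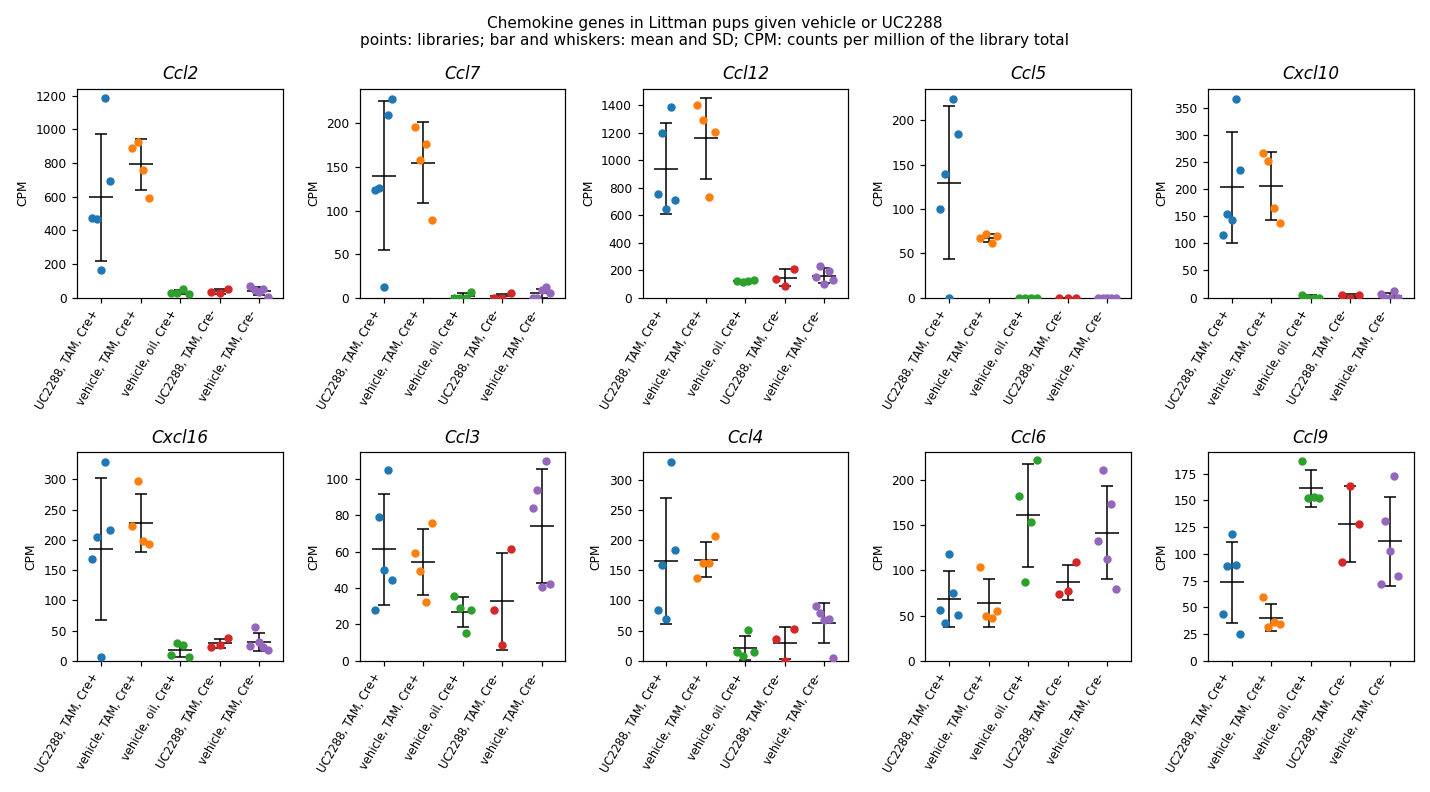
CPM of the 10 chemokine genes in the 5 groups of the vehicle and UC2288 table, with points for libraries and bars and whiskers for the mean and SD. Ccl5 is at 0 in all libraries of the 3 right-hand groups. The mean of Ccl9 is lowest in the vehicle Cre+ tamoxifen group (libraries at 31.5 to 59.3 CPM), and its lowest library, at 25.4 CPM, is in the UC2288 Cre+ group.

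The group with Cre but no tamoxifen and the group with tamoxifen but no Cre were compared as the 2 baselines. Between vehicle Cre+ oil and vehicle Cre- tamoxifen libraries, edgeR called 0 of 10 members and 0% of all genes (290 at an unadjusted p under 0.05, with 3 called by DESeq2 and 3 by limma-voom). Unadjusted, 2 members passed 0.05, Ccl3 (log2 -1.48, edgeR adjusted p = 0.768) and Ccl4 (log2 -1.41, edgeR adjusted p = 0.806). No member was called by DESeq2 or limma-voom. The other 5 members with a fitted value differed by -0.85 (Cxcl16) to 0.48 (Ccl9) on the log2 scale, and Ccl5, Cxcl10 and Ccl7 had at most 5 pooled counts in either group. These 2 groups differ in both Cre and tamoxifen.

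Other genes of chemokine signalling were read from the same fit. Of 27 other chemokine genes, 14 had a row and 0 passed the filter on low counts. Of the receptors, 3 were tested. Only Cx3cr1, the knock-in locus itself, was lower with Cre and tamoxifen than in Cre- (991 ± 119 CPM, n = 4, against 2541 ± 282 CPM, n = 5, log2 -1.53). Cre+ oil libraries, with the same knock-in but no tamoxifen, had 1355 to 1545 CPM of Cx3cr1. That range lay between Cre+ tamoxifen (841.9 to 1116 CPM) and Cre- tamoxifen libraries (2237 to 2919 CPM). The part of the knock-in genotype in the Cx3cr1 difference was not tested. All 20 genes of the interferon-response list were higher than in Cre- (median log2 4.86, or 4.53 with genes at 0 counts set to their bound), as were 4 of 9 NF-kB genes, namely Rel (log2 1.83), Nfkbia (1.70), Il1a (1.31) and Nfkb1 (0.87). Of 8 tested genes for chemokine processing and signalling, Rac1 was lower (log2 -1.09). Against oil, 19 of 20 interferon genes and 5 of 9 NF-kB genes were higher, the NF-kB genes led by Tnf (log2 2.90) and Nfkbia (2.09).

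Markers of other cells and immediate early genes were read in the same libraries. The 6 monocyte markers summed to 110.3 to 277.7 CPM in vehicle Cre+ tamoxifen libraries, against 0 to 23.4 CPM in Cre- tamoxifen and 0 to 21.7 CPM in Cre+ oil libraries. Most of that was Plac8 (89.6 to 274.0 CPM in Cre+ tamoxifen), while Ccr2, the defining receptor, had 0 to 6.89 CPM in Cre+ tamoxifen against 0 to 9.32 CPM in Cre- tamoxifen libraries, and Ly6c2 and Chil3 were at 0 in Cre+ tamoxifen. Border macrophage markers summed to 62.1 to 169.3 CPM in Cre+ tamoxifen, 271.4 to 474.3 CPM in Cre- tamoxifen and 291.0 to 357.0 CPM in Cre+ oil libraries. Summed microglial markers were 5553 to 6447 CPM in Cre+ tamoxifen against 10950 to 12060 CPM in Cre- tamoxifen. The immediate early and dissociation list summed to 540.3 to 737.7 CPM in Cre+ tamoxifen, 430.1 to 680.7 CPM in Cre- tamoxifen and 397.8 to 445.1 CPM in Cre+ oil libraries, without overlap between Cre+ tamoxifen and oil. Of its 5 tested genes, 2 were higher and 1 lower than in Cre-, and 2 were higher than in oil. The part of these lists in the chemokine differences was not tested.

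UC2288 was given to ask whether inhibiting CDKN1A alters the response. Cdkn1a RNA in Cre+ tamoxifen libraries was at 499.1 to 844.5 CPM with UC2288 and 620.5 to 1048 CPM with vehicle, which overlap. Whether CDKN1A was inhibited was not tested. Between UC2288 and vehicle in Cre+ pups given tamoxifen, edgeR called 0 of 10 members against 0.727% of all genes, and DESeq2 and limma-voom also 0. The 36 genes behind that share became 12 without UC2288 Cre+ replicate 3, and 1 (without vehicle replicate 3) to 266 (without UC2288 replicate 1) with each library left out in turn, while 0 members were called each time. Unadjusted, 2 members passed 0.05, Ccl5 and Ccl9, as did 831 of all 4953 tested genes. All 10 ranges overlapped, and the members' median log2 fold change was 0.016 beside 0.019 over all genes.

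Ccl2 had 472.3, 465.3, 162.2, 1183 and 692.0 CPM with UC2288, a spread that encloses all 4 vehicle libraries (592.9 to 923.0 CPM). The difference was -0.35 ± 0.30 on the log2 scale (edgeR adjusted p = 0.585), and -0.12 without replicate 3. Ccl12 had 756.5, 1200, 642.6, 1385 and 711.1 CPM with UC2288, against 734.7 to 1403 CPM with vehicle (log2 -0.22 ± 0.24, edgeR adjusted p = 0.684, and -0.12 without replicate 3). Cxcl10 had 116.1, 153.6, 143.5, 366.8 and 234.9 CPM with UC2288, against 137.9 to 266.6 CPM with vehicle, with a log2 difference of 0.0032 ± 0.30. The SD of Ccl2 was 378.8 CPM with UC2288 and 149.6 CPM with vehicle, while those of Ccl12 were closer at 331.7 and 294.3 CPM.

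Ccl5 had 100.1, 139.6, 0, 224.6 and 184.1 CPM with UC2288, against 61.2 to 72.0 CPM with vehicle. The 4 libraries with counts were all above the vehicle libraries, and the one at 0 was replicate 3. The log2 difference was 0.99 ± 0.46 (edgeR adjusted p = 0.271), and 1.30 (adjusted p = 0.0716) without replicate 3. Ccl9 had 44.0, 88.4, 118.5, 89.8 and 25.4 CPM with UC2288, against 31.5 to 59.3 CPM with vehicle (log2 0.88 ± 0.36, edgeR adjusted p = 0.216, and 0.64 without replicate 3). The other 5 members differed by -0.25 to 0.26 on the log2 scale, each less than its SE of 0.34 to 0.41.

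Replicate 3 of the UC2288 Cre+ group was the lowest of its group for Ccl2, Ccl12, Ccl4, Ccl5, Ccl7 (12.5 CPM, others 124.1 to 228.6 CPM) and Cxcl16 (6.24 CPM, others 168.1 to 329.3 CPM). It was the highest for Ccl9 and for Ccl6 (118.5 CPM, others 41.9 to 74.9 CPM). Its Cxcl10 of 143.5 CPM lay within its group.

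In Cre- pups given tamoxifen, UC2288 against vehicle gave 0 of 10 members called by edgeR, DESeq2 or limma-voom and 0.0202% of all genes. Unadjusted, Ccl3 (log2 -1.09 ± 0.47, edgeR adjusted p = 0.461) and Ccl6 (log2 -0.78) passed 0.05, as did 470 of all 4953 tested genes. The other 5 members with a fitted value differed by -0.93 (Ccl4) to 0.050 (Ccl9). The test of whether the UC2288 effect differed between Cre+ and Cre- called 0 members by any of these tools, against 1.94% of all genes. That share rests on 96 genes, and with each library left out in turn it became 1 (without UC2288 Cre- replicate 1) to 533 genes (without UC2288 Cre- replicate 3). Over all 4953 tested genes, 1067 were under 0.05 unadjusted. Ccl3 was the 1 member under 0.05 unadjusted (log2 1.35 ± 0.62, edgeR adjusted p = 0.206), and its value was 2.23 (adjusted p = 0.0412) without UC2288 Cre- replicate 3. Ccl2, Cxcl16, Ccl12, Ccl9, Ccl6 and Ccl4 stood between -0.27 (Ccl2) and 0.96 (Ccl4), and Ccl2 stood at -0.044 without UC2288 Cre+ replicate 3. Ccl5, Ccl7 and Cxcl10 had 0, 1 and 2 pooled counts in UC2288 Cre- libraries, so no size is given.

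Within UC2288-treated pups, Cre+ against Cre- gave 7 of 10 members higher and 0 lower, against 4% of all genes (3.51% higher, 0.485% lower). Ccl2 was 15.1-fold higher (594.9 ± 378.8 CPM, n = 5, against 36.8 ± 13.7 CPM, n = 3; log2 3.91, edgeR adjusted p = 2.62e-07), and its log2 difference was 4.14 without replicate 3. Ccl12 was 6.30-fold higher (939.1 ± 331.7 against 142.8 ± 61.7 CPM, edgeR adjusted p = 2.46e-07). Ccl7 and Cxcl10 had pooled counts of 124 and 1 (ratio 73.6, 13.0 to 2931) and of 171 and 2 (ratio 50.8, 13.8 to 423). Ccl5 was at least 22.6-fold higher, and Cxcl16 was higher by 2.60 ± 0.53 on the log2 scale (edgeR adjusted p = 0.00117), or 2.89 without replicate 3. Ccl4 was higher by 2.20 ± 0.55 (edgeR adjusted p = 0.0114), a call lost without UC2288 Cre- replicate 1 (adjusted p = 0.0631), which had 650.1 CPM of neutrophil markers, or replicate 2 (adjusted p = 0.0832).

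Ccl9 (log2 -0.77 ± 0.34, edgeR adjusted p = 0.294) and Ccl6 (log2 -0.40, edgeR adjusted p = 0.730) were not called within UC2288-treated pups. Without replicate 3 there were again 7 calls, against 274 over all genes, and Ccl9 stood at -1.03 (adjusted p = 0.0863) and Ccl6 at -0.71. Ccl3 was not called either (log2 0.70, edgeR adjusted p = 0.600). The same UC2288 Cre+ libraries against vehicle Cre+ oil libraries gave 9 of 10 members called, against 10.5% of all genes (6.6% higher, 3.88% lower), with Ccl9 (log2 -1.21, edgeR adjusted p = 0.00867) and Ccl6 (log2 -1.32, edgeR adjusted p = 0.00642) lower and Ccl3 not called (log2 1.09, edgeR adjusted p = 0.160). Without replicate 3 there were again 9 calls, against 673 over all genes, with Ccl9 at -1.45 and Ccl6 at -1.62. Under limma-voom there were 8, with Cxcl16 lost (log2 2.67, adjusted p = 0.105). The immediate early and dissociation list summed to 595.6 to 761.9 CPM in UC2288 Cre+ and 469.3 to 585.6 CPM in UC2288 Cre- libraries. Monocyte markers summed to 87.4 to 293.1 CPM in UC2288 Cre+, against 0 to 59.9 CPM in UC2288 Cre- libraries. The part of both lists was not tested.

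In the other postnatal set, Littman Cre+ and Cre- pups both received tamoxifen without vehicle. Of 7 members that passed the filter on low counts, Ccl2 and Ccl12 were higher and Ccl6 and Ccl9 lower in Cre+, against 7.8% of all 7076 tested genes (4.56% higher, 3.24% lower). Ccl5, Ccl7 and Cxcl10 were too low to test. The median of the tested members was -0.053, beside -0.0011 over all genes.

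Ccl12 had 292.2, 263.4, 208.0, 310.8 and 362.1 CPM in Cre+ libraries, against 126.5, 127.3, 117.6, 79.9 and 137.6 CPM in Cre- libraries. The groups did not overlap, and the difference was 2.52-fold (log2 1.33 ± 0.16, edgeR adjusted p = 1.12e-08). Ccl2 had 45.3, 191.5, 14.5, 26.6 and 27.5 CPM in Cre+ libraries, against 2.64, 10.2, 12.8, 2.66 and 11.7 CPM in Cre- libraries. One Cre+ library, replicate 2, was far above the rest, and the lowest Cre+ library was just above the highest Cre- library. Ccl2 was 7.33-fold higher (log2 2.87 ± 0.55, edgeR adjusted p = 0.000217). Without replicate 2 it no longer passed the filter, and with no filter and that library left out, an alternative chosen after seeing the data, the log2 difference was 1.84 (edgeR adjusted p = 0.00198).

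The replicate 2 library also had 82.5 CPM of the immediate early gene Fos, against at most 4.84 CPM in the other 4 Cre+ libraries. Its immediate early and dissociation list summed to 1793 CPM, against 593.5 to 694.2 CPM in those 4 and 608.6 to 732.0 CPM in Cre- libraries. The part of these genes in its Ccl2 level was not tested.

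Ccl9 had 29.5, 42.6, 50.8, 53.3 and 50.4 CPM in Cre+ libraries, against 105.4, 129.9, 153.4, 234.2 and 125.9 CPM in Cre- libraries. It was 3.19-fold lower with no overlap (log2 -1.67 ± 0.20, edgeR adjusted p = 3.81e-08). Ccl6 had 38.5, 18.6, 33.9, 42.2 and 39.0 CPM in Cre+ libraries, against 105.4, 101.8, 86.9, 95.8 and 64.4 CPM in Cre- libraries. It was 2.53-fold lower, also with no overlap (log2 -1.34 ± 0.22, edgeR adjusted p = 2.74e-05). Both CCR1 ligands thus separated the groups library by library.

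Cxcl16 averaged 35.0 ± 9.6 CPM in Cre+ and 19.8 ± 4.9 CPM in Cre- libraries (SD, n = 5 each), a log2 difference of 0.88 ± 0.30 that missed the threshold (edgeR adjusted p = 0.0629) and passed it without Cre+ replicate 2 (log2 1.00, adjusted p = 0.0263). Ccl3 (log2 -0.21, edgeR adjusted p = 0.877) and Ccl4 (log2 -0.053, edgeR adjusted p = 0.969) were not called, and their groups overlapped widely. The 3 untested genes had pooled counts of 16 in Cre+ and 0 in Cre- for Ccl5 (at least 4.74-fold), 20 and 2 for Cxcl10 (ratio 8.88, 2.16 to 78.4) and 11 and 2 for Ccl7 (ratio 4.89, 1.07 to 45.4). Single libraries carried much of this, with 26.6 CPM of Ccl5 in Cre+ replicate 2 and 31.4 CPM of Cxcl10 in Cre+ replicate 3.

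In the same comparison 12 of 14 interferon-response genes were higher (median log2 1.70), with summed levels of 1059 to 1273 CPM in Cre+ and 376.8 to 538.6 CPM in Cre- libraries. Among the receptor genes, Ccr1, the receptor of CCL6 and CCL9, was higher (172.6 ± 37.7 CPM in Cre+ against 64.0 ± 24.0 CPM in Cre-, n = 5 each; log2 1.48 ± 0.19, edgeR adjusted p = 1.62e-07). Ccr6 (log2 -2.51) and Cx3cr1 (-1.43) were lower. Of 11 NF-kB genes, 1 was higher and 1 lower. Monocyte markers summed to 23.9 to 101.9 CPM in Cre+ and 2.56 to 50.9 CPM in Cre- libraries, with Ccr2 at 2.27 to 12.1 CPM in Cre+ and 0 to 22.9 CPM in Cre-. Border macrophage markers summed to 106.4 to 286.5 CPM in Cre+ and 87.8 to 127.8 CPM in Cre-. The part of these cells was not tested.

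In the Jung line, tamoxifen against oil in pups gave 0 of 7 members called by edgeR, DESeq2 or limma-voom, against 0.0848% of all genes. Unadjusted, Ccl9 and Ccl6 passed 0.05, as did 392 of all 7076 tested genes. Ccl9 had 85.1, 145.8, 136.0 and 142.3 CPM with tamoxifen, against 222.5, 190.5, 173.0, 292.9 and 204.6 CPM with oil, and the ranges did not overlap (log2 -0.78 ± 0.17, edgeR adjusted p = 0.0509). This value lies at the threshold, and 5 of the alternative settings put it below. Ccl6 had 77.1, 85.0, 88.0 and 43.6 CPM with tamoxifen, against 92.5, 106.5, 93.1, 168.1 and 138.2 CPM with oil, again without overlap (log2 -0.70 ± 0.20, edgeR adjusted p = 0.365).

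Ccl12 had 143.6, 88.1, 85.3 and 145.2 CPM with tamoxifen in Jung pups, against 132.5, 70.1, 90.5, 99.3 and 135.5 CPM with oil (log2 0.13, edgeR adjusted p = 0.989). The means of Ccl3 were 12.1 ± 4.2 CPM with tamoxifen and 22.5 ± 8.2 CPM with oil (SD, n = 4 and 5; log2 -0.90, edgeR adjusted p = 0.890). Ccl4 (23.1 ± 5.5 with tamoxifen, 28.1 ± 18.7 CPM with oil), Cxcl16 (21.9 ± 4.4 and 20.8 ± 9.7 CPM) and Ccl2 (6.11 ± 4.53 and 5.73 ± 5.63 CPM) were not called either. The Littman difference minus the Jung difference was called for Ccl12 (log2 1.21 ± 0.25, edgeR adjusted p = 0.00888), as for 0.353% of all genes, and for no other member. It was -0.90 for Ccl9 (edgeR adjusted p = 0.137) and 2.75 ± 1.22 for Ccl2 (edgeR adjusted p = 0.439), and lay between -0.64 (Ccl6) and 0.82 (Cxcl16) for the other 4. The Littman difference sets Cre against no Cre and the Jung difference tamoxifen against oil, so line and design cannot be told apart. Between the 2 baselines, Jung oil and Littman Cre- tamoxifen, 0 members were called by edgeR, DESeq2 or limma-voom against 0.791% of all genes. Ccl9 (log2 0.53, edgeR adjusted p = 0.0808) and Ccl6 were under 0.05 unadjusted, as were 895 of all 7076 tested genes. Ccl9 passed the adjusted threshold without Littman Cre- replicate 4 (log2 0.74, adjusted p = 0.00359). The other 5 members differed by -0.45 (Ccl2) to 0.27 (Ccl3) on the log2 scale.

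**Figure D2:**
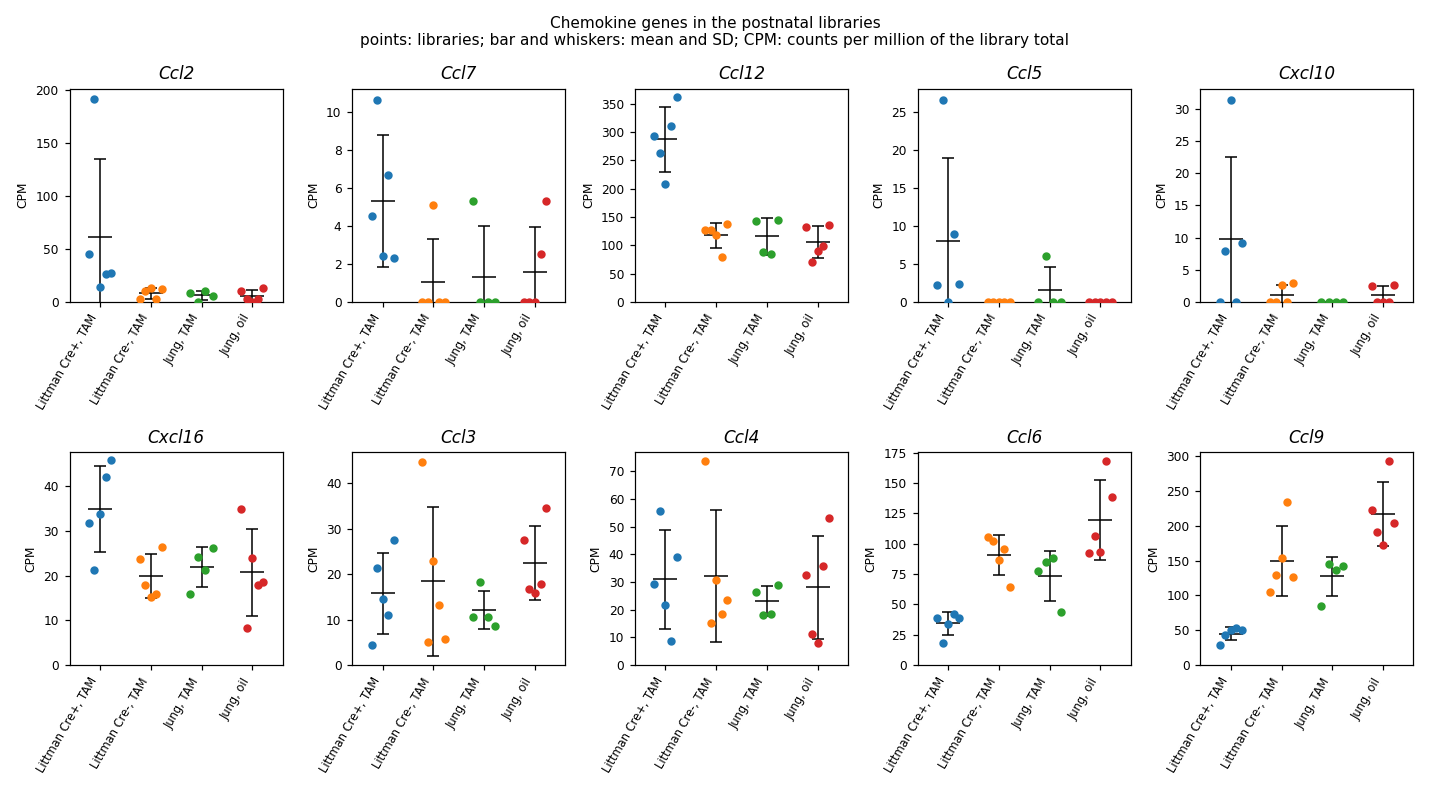
CPM of the chemokine genes in the 4 groups of the postnatal table, with points for libraries and bars and whiskers for the mean and SD. Ccl12 stands at 208.0 to 362.1 CPM in Littman Cre+ libraries, above the other 3 groups, and Ccl6 and Ccl9 stand below them.

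In the BLZ-titled adults, Littman microglia held far more of most members than Jung microglia, with tamoxifen and with oil. Of 9 tested members, 7 were higher in Littman oil than in Jung oil libraries, against 9.12% of all 5163 tested genes (6.72% higher, 2.4% lower), and none was lower. With tamoxifen, 7 of 9 were also higher, against 5.48% of all genes (3.87% higher, 1.61% lower). The medians were 1.95 with oil and 4.45 with tamoxifen, beside -0.045 and -0.014 over all genes. Line, Rosa26YFP and, by the treatment labels, BLZ945 all differ between these groups and cannot be told apart. Sex, read from Xist against Y-linked transcripts, also differed with tamoxifen (3 female and 1 male in Littman, 1 female and 3 male in Jung).

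Ccl12 had 1107, 1817, 948.2 and 1732 CPM in Littman tamoxifen libraries, against 122.5, 74.2, 157.2 and 130.1 CPM in Jung tamoxifen libraries. It had 854.1, 1010 and 1195 CPM in Littman oil, against 184.7, 120.2, 115.4 and 83.8 CPM in Jung oil libraries. It was 12.8-fold higher with tamoxifen (log2 3.68 ± 0.27, edgeR adjusted p = 2.42e-11) and 9.41-fold higher with oil (log2 3.23 ± 0.28, edgeR adjusted p = 7.85e-10). Ccl2 had 175.9, 279.5, 102.4 and 251.2 CPM in Littman tamoxifen, against 0, 0, 15.2 and 5.42 CPM in Jung tamoxifen libraries (log2 5.26 ± 0.53, edgeR adjusted p = 1.91e-08). It had 145.9, 113.6 and 97.3 CPM in Littman oil, against 26.4, 31.2, 5.24 and 5.24 CPM in Jung oil libraries (log2 2.95 ± 0.48, edgeR adjusted p = 7.81e-05). For both genes no Jung library reached any Littman library.

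Cxcl10 had 240.2, 368.5, 182.5 and 237.9 CPM in Littman tamoxifen, against 21.3, 5.30, 15.2 and 0 CPM in Jung tamoxifen libraries, a 25.8-fold difference (edgeR adjusted p = 2.95e-09). It had 309.0, 249.1 and 358.4 CPM in Littman oil and no count in Jung oil libraries, at least 81.0-fold higher (edgeR adjusted p = 7.33e-11). Ccl5 had 321.7, 508.2, 138.0 and 110.2 CPM in Littman tamoxifen, against 10.7, 5.30, 15.2 and 21.7 CPM in Jung tamoxifen libraries, a 21.9-fold difference (edgeR adjusted p = 1.12e-07). It had 120.2, 87.4 and 70.8 CPM in Littman oil, and 1 count in all Jung oil libraries (64 against 1 counts, ratio 74.0, 12.8 to 2970; edgeR adjusted p = 2.77e-05). Both genes were thus present in every Littman library and low in or absent from Jung libraries.

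Ccl4 and Ccl3 were higher in Littman here. Ccl4 had 124.4, 499.8, 231.5 and 149.8 CPM in Littman tamoxifen, against 5.33, 0, 5.07 and 10.8 CPM in Jung tamoxifen libraries (log2 5.58 ± 0.64, edgeR adjusted p = 1.92e-07). With oil the log2 difference was 1.93 ± 0.51 (edgeR adjusted p = 0.0123), and Jung oil replicate 2, at 93.5 CPM, came close to the Littman libraries at 109.3 to 133.1 CPM. Ccl3 had pooled counts of 101 in Littman and 3 in Jung with tamoxifen (ratio 27.7, 9.22 to 137, edgeR adjusted p = 2.18e-05). With oil it had 107.3, 26.2 and 66.4 CPM in Littman, against 5.28, 53.4, 10.5 and 5.24 CPM in Jung libraries, which overlap (log2 1.95 ± 0.58, edgeR adjusted p = 0.0296). This call of Ccl3 was lost under DESeq2 (adjusted p = 0.137) and limma-voom (adjusted p = 0.0925), and without Littman oil replicate 1 or 3 or Jung oil replicate 1, 3 or 4 (adjusted p = 0.0591 to 0.281). Ccl4 with oil was lost under DESeq2 (adjusted p = 0.0929) and without Littman oil replicate 1 (adjusted p = 0.0677).

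Cxcl16 was also higher in Littman, with log2 differences of 1.11 ± 0.27 with tamoxifen (edgeR adjusted p = 0.00915) and 1.15 ± 0.30 with oil (edgeR adjusted p = 0.0105). The tamoxifen call was lost without Littman tamoxifen replicate 2 (adjusted p = 0.0528), and the oil call without Littman oil replicate 1 (adjusted p = 0.0884). Ccl6 and Ccl9 were not called. Ccl9 had a log2 difference of 0.29 with tamoxifen and 0.76 with oil (edgeR adjusted p = 0.0684), which passed without Jung oil replicate 1 or 3 (adjusted p = 0.0396 and 0.0445). Ccl6 had 92.5 to 129.1 CPM in Littman tamoxifen and 154.5 to 195.1 CPM in Jung tamoxifen libraries, without overlap (log2 -0.52, edgeR adjusted p = 0.285), and a log2 difference of -0.055 with oil. Ccl7 was not tested, with pooled counts of 10 and 1 with tamoxifen and 9 and 2 with oil in Littman and Jung.

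Of 19 interferon-response genes, 17 were higher in Littman in each of these comparisons (medians 2.77 with tamoxifen and 3.64 with oil), and 0 of 10 NF-kB genes was called in either direction. Monocyte markers summed to 21.2 to 237.9 CPM in Littman tamoxifen and 34.3 to 154.9 CPM in Littman oil, against 0 to 15.7 CPM in Jung libraries. Neutrophil markers summed to 2415 CPM in Littman tamoxifen replicate 1 and 2845 CPM in Littman oil replicate 3, and were at 0 in the other BLZ-titled libraries. Without these libraries, 7 of 9 members were again called with tamoxifen and 6 of 9 with oil, where Ccl3 was lost. No share over all genes is given beside these counts. The part of the monocyte markers was not tested.

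Tamoxifen against oil within each BLZ-titled line gave no calls. By the same transcripts, Littman oil libraries were 0 female and 3 male, against 3 female and 1 male with tamoxifen. Sex and tamoxifen thus nearly coincide in Littman and can hardly be told apart. In Littman 0 of 9 members were called by edgeR, DESeq2 or limma-voom, against 0.0581% of all genes. Unadjusted, Ccl5, Ccl4 and Ccl2 were under 0.05, as were 369 of all 5163 tested genes. Ccl5 averaged 269.5 ± 184.8 CPM with tamoxifen (n = 4) and 92.8 ± 25.1 CPM with oil (n = 3), a log2 difference of 1.50 ± 0.38 (edgeR adjusted p = 0.172) that passed without Littman tamoxifen replicate 3 (adjusted p = 0.0270) or 4 (adjusted p = 0.0340). Ccl12 averaged 1401 ± 437 CPM with tamoxifen and 1019 ± 171 CPM with oil (log2 0.43, edgeR adjusted p = 0.729). Ccl4 and Ccl2 differed by 1.01 and 0.73 on the log2 scale, and Ccl9, Ccl6, Cxcl10, Cxcl16 and Ccl3 by -0.39 (Ccl9) to 0.67 (Ccl3).

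In BLZ-titled Jung libraries, 0 of 9 members and 0% of all genes were called by edgeR (287 genes unadjusted, 0 by DESeq2 and 0 by limma-voom). Unadjusted, 4 members were under 0.05: Ccl4 (log2 -2.63, edgeR adjusted p = 0.806), Ccl3 (3 counts with tamoxifen and 16 with oil), Cxcl10 (8 and 0 counts, at least 2.80-fold) and Ccl5 (10 and 1 counts, ratio 10.5, 1.49 to 456). Ccl2 had 4 counts with tamoxifen and 14 with oil, and Ccl12, Ccl9, Ccl6 and Cxcl16 differed by -0.020 (Ccl12) to 0.27 (Cxcl16) on the log2 scale. The difference between the lines in their tamoxifen effect was not called for any member or for any gene (0%, 417 unadjusted, 1 by DESeq2 and 0 by limma-voom), and Ccl4 had a log2 value of 3.64 ± 0.98 (edgeR adjusted p = 0.357), with 4 members under 0.05 unadjusted. Ccl2 stood at 2.31 ± 0.92, and Ccl9, Ccl6, Cxcl16 and Ccl12 between -0.47 (Ccl9) and 0.45 (Ccl12). Ccl3, Ccl5 and Cxcl10 had 3 or fewer pooled counts in a Jung group, so no size is given.

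**Figure D3:**
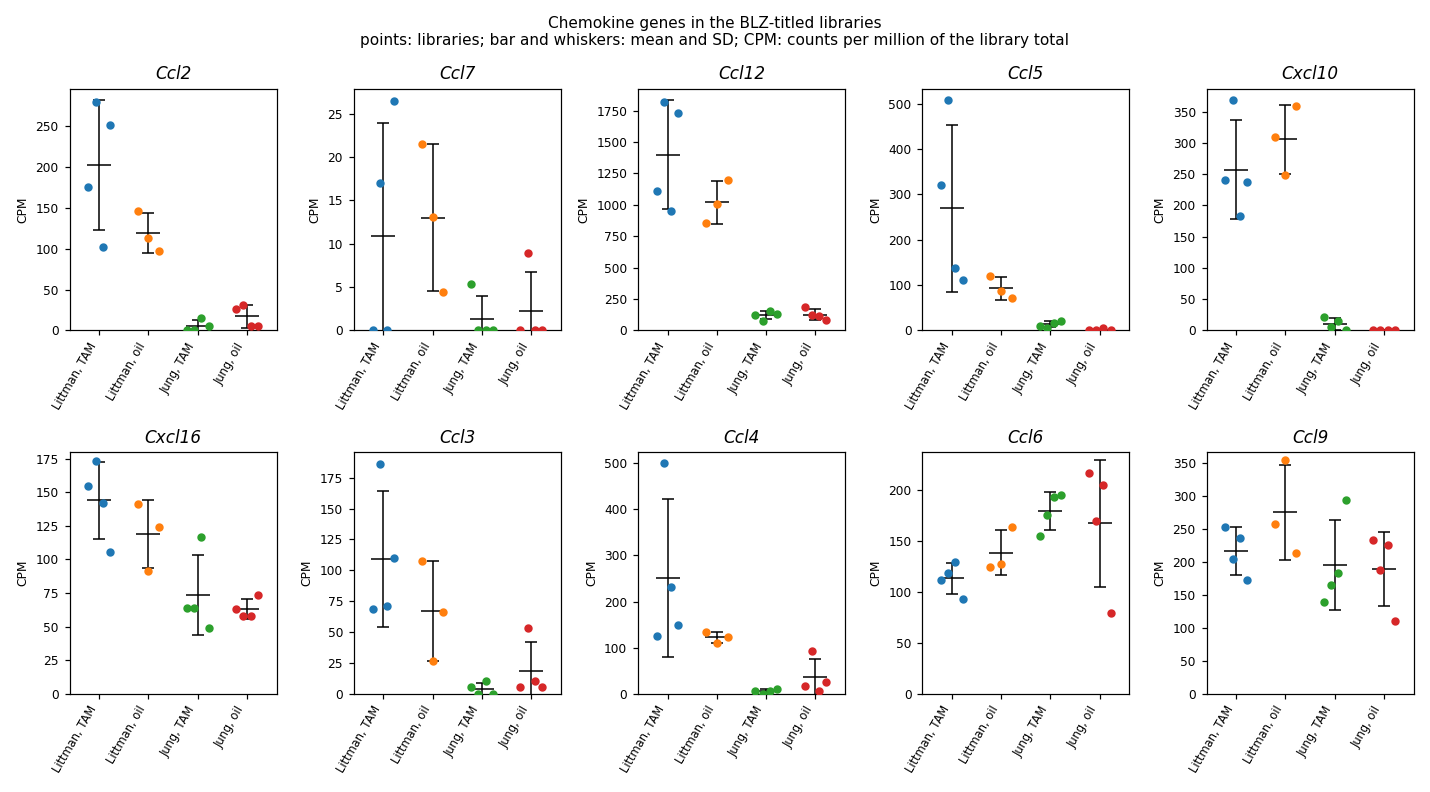
CPM of the chemokine genes in the 4 BLZ-titled groups, with points for libraries and bars and whiskers for the mean and SD. Ccl12 lies at 854.1 CPM or more in every Littman library and at 184.7 CPM or less in every Jung library.

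In adults, tamoxifen against oil gave no called member in either line. In adult Littman libraries 0 of 5 tested members were called by edgeR, DESeq2 or limma-voom, against 0.0181% of all 5512 tested genes. Unadjusted, 154 genes were under 0.05. Ccl12, the 1 member under 0.05 unadjusted, had 69.0, 58.7 and 106.3 CPM with tamoxifen, against 44.9, 46.0, 27.7 and 67.8 CPM with oil (log2 0.79 ± 0.34, edgeR adjusted p = 0.998). The groups overlapped. Ccl9 averaged 203.2 ± 6.5 CPM with tamoxifen (n = 3) and 182.2 ± 43.1 CPM with oil (n = 4), and Ccl6 176.9 ± 54.4 CPM with tamoxifen and 139.9 ± 27.1 CPM with oil. Ccl4 averaged 75.4 ± 16.6 CPM with tamoxifen and 65.2 ± 72.7 CPM with oil, and Cxcl16 54.1 ± 29.8 CPM with tamoxifen and 47.3 ± 8.7 CPM with oil. Ccl2 and Ccl3 did not pass the filter on low counts, with 19.4 and 17.2 CPM with tamoxifen and 9.91 and 10.9 CPM with oil.

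In adult-titled Jung libraries 0 of 4 tested members and 0% of all genes were called by edgeR (113 genes unadjusted, 0 by DESeq2 and 0 by limma-voom). Cxcl16, the 1 member under 0.05 unadjusted, had 48.9, 52.0, 39.4 and 80.9 CPM with tamoxifen, against 29.9, 39.5, 24.0 and 43.8 CPM with oil (log2 0.71 ± 0.33, edgeR adjusted p = 1.000). Ccl9 averaged 143.2 ± 28.6 CPM with tamoxifen and 163.1 ± 51.4 CPM with oil (n = 4 each), Ccl6 132.2 ± 16.0 and 144.7 ± 25.4 CPM, and Ccl4 56.4 ± 43.0 and 55.8 ± 48.4 CPM. Ccl12 (27.5 CPM with tamoxifen, 36.6 CPM with oil), Ccl2 (5.19 and 7.12 CPM) and Ccl3 (20.3 and 12.9 CPM) did not pass the filter. In all adult libraries of these 2 tables Ccl5 reached at most 6.99 CPM and Cxcl10 17.3 CPM, and Ccl7 reached 3.39 CPM in the Littman table. These 3 genes did not pass the filter where they had a row and were not tested in these 2 tables.

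**Figure D4:**
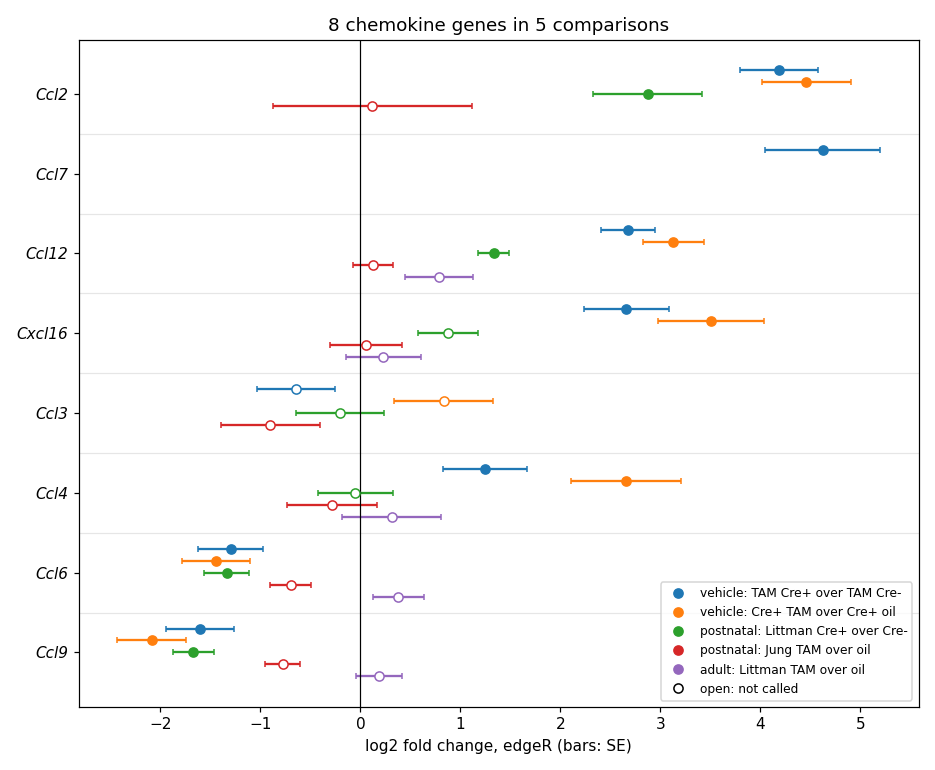
Log2 fold change and SE of 8 members in 5 comparisons, filled where the adjusted p is below 0.05 and open where it is not; Ccl5 and Cxcl10, at or near 0 in some groups, are left out. Ccl12 is filled to the right of 0 in the vehicle and postnatal Littman comparisons and Ccl9 to the left, while all points of the Jung and adult comparisons are open.

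The order of mean levels across the 17 groups is given as a description, since the groups come from 5 tables. Ccl12 was highest in BLZ-titled Littman tamoxifen libraries (1401 CPM), then vehicle Cre+ tamoxifen (1159 CPM), BLZ-titled Littman oil (1020 CPM) and UC2288 Cre+ (939 CPM), and its ranges broke there from postnatal Littman Cre+ (287.3 CPM), with no further break down to adult Jung tamoxifen (27.5 CPM). Ccl2 ran from 791.1 CPM in vehicle Cre+ tamoxifen to 5.16 CPM in BLZ-titled Jung tamoxifen with every neighbouring pair of groups overlapping. Neighbours also overlapped throughout for Ccl3, Ccl7, Ccl9 and Cxcl16. A break compares neighbours in this order only, so groups farther apart can still overlap. Cxcl10 broke between UC2288 Cre+ (203.0 CPM) and BLZ-titled Jung tamoxifen (10.5 CPM). Ccl5 broke between vehicle Cre+ tamoxifen (67.2 CPM) and BLZ-titled Jung tamoxifen (13.2 CPM), but UC2288 Cre+, higher in mean, ran from 0 to 224.6 CPM. Ccl4 broke between BLZ-titled Littman oil (122.1 CPM) and adult Littman tamoxifen (75.4 CPM). Adult Littman oil, lower in mean, still reached 173.4 CPM, and UC2288 Cre+, higher in mean, went down to 68.6 CPM. Ccl6 broke between vehicle Cre+ tamoxifen (63.8 CPM) and postnatal Littman Cre+ (34.4 CPM), its lowest group. The latter reached 42.2 CPM, while UC2288 Cre+ went down to 41.9 CPM.

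Whether members vary together between libraries of 1 group was asked from deviations of log2 CPM from the group mean, over up to 70 libraries and 45 pairs. Of these, 9 pairs passed 0.05 by both Pearson and Spearman correlation after Benjamini-Hochberg adjustment of permutation p-values, all positive. No share among pairs of other genes is given beside these 9, so they are not shown to be particular to chemokines. Ccl3 and Ccl4, adjacent genes on chromosome 11, were the closest pair, with r = 0.678 and rho = 0.609 (permutation p = 1e-05 for r, the smallest that the 100000 permutations can give, adjusted 0.00045). Without the 2 farthest libraries r was 0.639, and within the 5 tables it was 0.577 to 0.854. Libraries high in one gene of this pair for their group were thus mostly high in the other.

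Ccl2 and Ccl12 had r = 0.503 and rho = 0.511 (permutation test, adjusted p = 0.00285), 0.539 without the 2 farthest libraries and 0.363 to 0.704 within tables. Ccl2 and Ccl7 had r = 0.526 and rho = 0.429 over 62 libraries. Ccl6 and Ccl9 had r = 0.448 and rho = 0.448 (permutation test, adjusted p = 0.0138), but within tables this ranged from 0.0537 in adult Littman to 0.66 in BLZ-titled libraries. Ccl5 and Cxcl16 had r = 0.59, which missed the adjusted threshold (permutation test, adjusted p = 0.121) and was 0.101 without UC2288 Cre+ replicate 3. The genes of a pair share their libraries and so their depth.

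**Figure D5:**
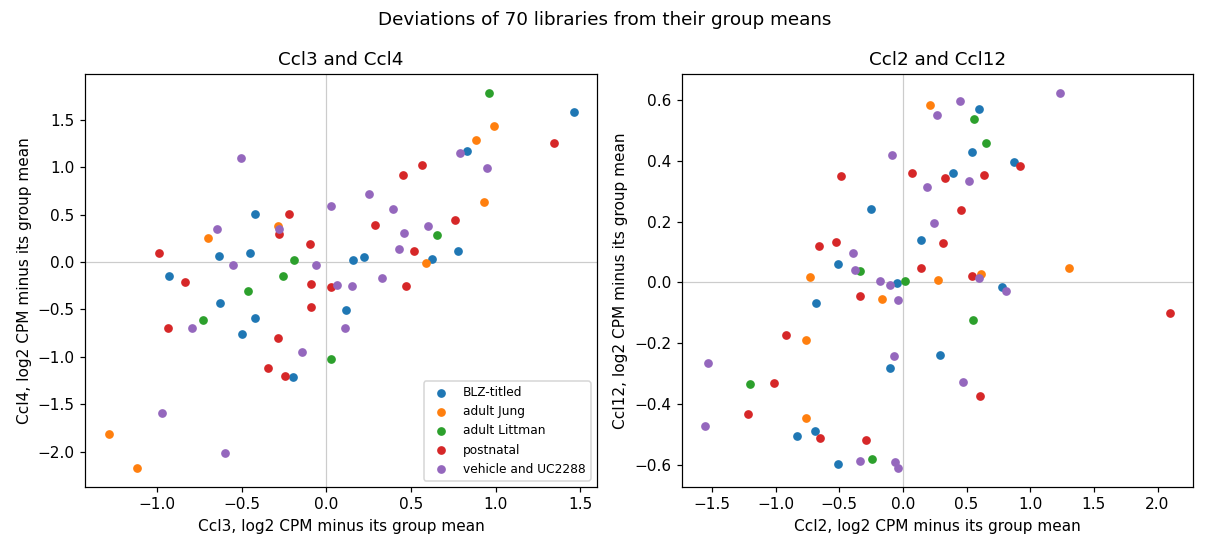
Deviation of log2 CPM from the group mean in 70 libraries for Ccl3 against Ccl4 and for Ccl2 against Ccl12, 1 point per library. Both clouds rise to the right, with r = 0.678 for Ccl3 and Ccl4 and r = 0.503 for Ccl2 and Ccl12.

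The genes most like each member were sought by the same deviations among 2808 genes with a mean of at least 50 CPM. Over the 21 libraries of the vehicle and UC2288 table, the MHC class I gene H2-K1 was nearest to Ccl5 (r = 0.964), Cxcl16 (0.929) and Ccl7 (0.862), followed by H2-D1 for Ccl5 (0.887) and Cxcl16 (0.907). Without UC2288 Cre+ replicate 3, an alternative chosen after seeing the data, the likeness to H2-K1 was 0.578 for Ccl5, 0.553 for Cxcl16 and 0.372 for Ccl7, and that to H2-D1 0.291 and 0.558, so these high values rest on that library. The nearest to Ccl3 was Ccl12 (0.851), to Cxcl10 Rnh1 (0.846), to Ccl2 Csnk2b (0.791) and to Ccl9 Slc25a4 (0.786). Over the 19 postnatal libraries, Ccl9 was nearest to the microglial marker Tmem119 (0.84) and Ccl2 to the immediate early gene Jun (0.722). These include Littman Cre+ replicate 2, which stood apart in Ccl2 (191.5 CPM) and had 82.5 CPM of Fos. Whether the likeness of Ccl2 to Jun rests on that library was not tested. The values of the first set for Ccl3, Cxcl10, Ccl2 and Ccl9 were 0.874, 0.85, 0.704 and 0.768 without UC2288 Cre+ replicate 3. All are descriptions with no test.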

How the data were processed

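CEL-Seq2 libraries carry molecular identifiers of 10 nt and count 3' ends. The values as deposited are raw counts for each gene and library. The authors made them with HISAT2, featureCounts, UMI-tools and Trim Galore on GRCm38, per the submitters' processing notes. Neither versions nor an annotation nor a strand setting is stated there. Every count column was used. CPM are counts over column totals.

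Each table was fitted whole with edgeR 4.0.16 in R 4.3.3 (TMM, filterByExpr by group, all groups in 1 quasi-likelihood fit), with Benjamini-Hochberg adjustment over all tested genes and a call at 0.05. No test crossed tables. Folds against 0 counts assume 3 counts over the group, and ratios over 1 to 3 counts have exact 95% intervals. Alternatives were RLE, library totals alone, DESeq2 1.42.0, limma-voom (limma 3.58.1), no filter, replicate block, sex, only the compared groups and each library left out. The fit was tested on simulated data. The members and lists were chosen with earlier results of these data known. Tested members are given singly or as a range of log2 differences where their counts allow, with at most 4 called genes per list. Sequences and places come from RefSeq and GENCODE M21 on GRCm38. Of the receptor list, 1 gene is not reported here.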

Additional observations from a re-analysis of the deposited data

Results flagged for a closer look

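Each member was examined in each group of 4 or 5 libraries where it averaged at least 20 CPM, which gave 88 sets. In 9 of them the highest or lowest library lay farther from the rest than Dixon's 95% limit allows. Chance gives about 1 in 20 for independent sets, but these sets share libraries. Ccl2 was 191.5 CPM in postnatal Littman Cre+ replicate 2, against 14.5 to 45.3 CPM in the other 4. Ccl4 was 4.66 CPM in vehicle Cre- tamoxifen replicate 5 (others 67.2 to 90.1 CPM), 73.8 CPM in postnatal Littman Cre- replicate 1 (others 15.3 to 30.7 CPM) and 173.4 CPM in adult Littman oil replicate 3 (others 19.2 to 40.7 CPM). Ccl6 was 103.7 CPM (others 46.8 to 55.2 CPM) and Ccl9 59.3 CPM (others 31.5 to 36.0 CPM) in the same library, vehicle Cre+ tamoxifen replicate 1. Ccl9 was also apart at 187.2 CPM in vehicle Cre+ oil replicate 1 (others 152.2 to 153.0 CPM), 85.1 CPM in postnatal Jung tamoxifen replicate 1 (others 136.0 to 145.8 CPM) and 117.9 CPM in adult Littman oil replicate 3 (others 199.4 to 208.3 CPM).

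The postnatal effect of Ccl12 differed between the Littman Cre contrast and the Jung tamoxifen contrast, with a log2 difference of 1.21 that passed the edgeR test of the difference itself.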

How the results depend on the processing

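Of 160 member results, 53 were called and 0 reversed. Alternatives ended 8 of 427 calls and gave 13 new ones; leaving out a library ended 12 of 450 and gave 7. The count of called members moved as follows. For postnatal Jung tamoxifen against oil it was 1 instead of 0 under RLE, no low-count filter, the replicate block, sex as a covariate and only the compared groups, each time Ccl9 (edgeR adjusted p = 0.0479, 0.000248, 0.00685, 0.00961 and 0.00349). For Jung oil against Littman Cre- tamoxifen it was 1 (Ccl9) with no filter, the replicate block or sex, and 0 to 1 with a library left out. The postnatal line difference had 2 calls (Ccl12, Ccl9) with no filter, with or without Littman Cre+ replicate 2. Within UC2288, Cre+ against Cre- gave 4 calls instead of 7 under limma-voom, which lost Ccl5, Ccl4 and Cxcl16. UC2288 Cre+ against vehicle oil Cre+ gave 8 instead of 9 there, without Cxcl16. The UC2288 by Cre test gave 0 to 1 with a library left out. BLZ-titled Littman tamoxifen against oil gave 1 (Ccl5) with no filter and 0 to 1 with a library left out, the BLZ-titled line difference 1 (Ccl4) with no filter, and BLZ-titled oil Littman against Jung 4 to 7 with a library left out, 4 without Littman oil replicate 1. Causes were not tested. Ccl4 in vehicle Cre+ against Cre- was lost under DESeq2 (adjusted p = 0.110). Whether replicate numbers pair the libraries was asked from same-numbered deviations. Their median correlations were 0.046 (postnatal), -0.0060 (vehicle and UC2288), 0.00096 (BLZ-titled), -0.12 (adult Littman) and 0.20 (adult Jung, against -0.079 for other numbers). Each table had pairs below 0 (in adult Jung down to -0.16). Adult Littman and adult Jung had only 3 and 4 such pairs, too few to exclude pairing there. Counts over all genes moved in 46 of 150 alternatives, and the replicate block changed no member count but those named. Depth limits Ccl5, Ccl7 and Cxcl10, which had few or no counts in many groups.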
